A study of Mus musculus with 72 samples.

Results

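DNA polymerase theta (Pol θ) inhibition without aphidicolin was examined at a break on mouse chromosome 8, in 6 libraries of LAM-HTGTS. This assay amplifies 1 broken DNA end and sequences what it was joined to. The libraries were chosen by their labels as the DMSO and ART558 ones with the chr8 bait in the inhibitor collection. They make up 6 of the 72 samples of the series and 6 of its 60 junction files. The study followed how neural progenitor cells join DNA ends under aphidicolin, ART558 or both. All 6 libraries came from Nxp010, a line of ES cell-derived neural progenitor cells of genotype NestinCre+ Xrcc4-/- p53-/-, labelled parental. The 3 control libraries received the solvent DMSO, and the other 3 received ART558 at 5 µM for 72 h and then 2.5 µM for 24 h. None received aphidicolin. The cells were 1 line, and the study calls the repeats of a bait technical in one place and biological in others, so p-values here measure the spread between libraries, which may be technical.

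Pol θ performs theta-mediated end joining: it anneals short stretches of microhomology between resected ends, extends them and can copy nearby bases into the junction. ART558 is a small molecule that inhibits its polymerase activity. Xrcc4 is a core factor of classical non-homologous end joining, so Xrcc4-deficient cells join breaks by alternative routes, and loss of p53 lets cells with unrepaired breaks survive. In LAM-HTGTS, Cas9 cuts at a chosen site, and a primer beside the cut reads the broken end (the bait) across its junction with the joined sequence (the prey).

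The guide and the sequence past the cut are shown because the measures below count bases from the cut. All coordinates are of GRCm38/mm10. The guide lies on the minus strand at chr8:59477701-59477720, so that the cut falls between 59477703 and 59477704, outside annotated genes. The nearest protein-coding genes are BC030500, 563 kb to the left, and Gm10283, 952 kb to the right. Capitals mark the PAM in the guide and the first 50 bases past the cut. The sequence past the cut spans chr8:59477704-59477903 on the plus strand.
guide with PAM: gtcgaccatatgctaatcttAGG
past the cut: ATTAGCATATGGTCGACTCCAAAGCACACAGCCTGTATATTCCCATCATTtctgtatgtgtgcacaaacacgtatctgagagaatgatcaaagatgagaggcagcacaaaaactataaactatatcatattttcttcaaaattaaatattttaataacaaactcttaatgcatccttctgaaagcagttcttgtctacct

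The libraries were unequal in depth. DMSO replicates 1 to 3 held 10958, 11917 and 12645 junctions, and ART558 replicates 1 to 3 held 2375, 3170 and 133. ART558 replicate 3 also held many repeats, with 83 distinct junctions among its 133, against 93.9% to 95.3% distinct in the other 5. Results are therefore given for each library or with and without it. The DMSO libraries carried the name of 1 sequencing run in their reads and the ART558 libraries that of another, so at this bait the run and the inhibitor cannot be told apart. Bait reads of the DMSO libraries held 6.83 to 6.91 mismatches, against 2.67 to 3.13 with ART558, and their part in the results was not tested beyond the values given for junctions with clean ends. Class counts of the DMSO libraries were close to sampling noise (chi-square p = 0.419, 0.0288 and 0.858 for the pairs 1-2, 1-3 and 2-3). Those of the ART558 libraries differed far beyond it, also between the 2 large ones (chi-square p = 2.76e-19, 3.52e-42 and 4.22e-57). The DMSO libraries shared 3 to 8 junctions on other chromosomes by pair, so they were kept as 3 libraries. Intervals are of 95% (Wilson), and these and the limits set by a count of 0 cover counting error only.

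The study states that LAM-HTGTS counts ends that can be recovered, not all breakage. In DMSO most recovered junctions joined the bait to the other side of the same break after the loss of 200 bp to 10 kb. With ART558 such deletions took a much smaller share, while the shortest deletions and junctions with other chromosomes took larger ones. Deletions, in which the prey lies past the cut and reads in the bait's direction, were divided by the bases lost on the prey side. Those of 200 bp to 10 kb made up 56.2%, 55.6% and 55.3% of junctions in the DMSO libraries. In the ART558 libraries they made up 15.8%, 12.2% and 4.51%, the last from 6 junctions. The groups did not overlap, with means of 55.7% ± 0.458 (SD, n = 3) and 10.9% ± 5.78 (SD, n = 3), or 14.02% ± 2.55 without ART558 replicate 3. The share was 3.97-fold lower without that library (2 libraries against 3). Deletions of 10 kb to 1 Mb were rare, with 50, 66 and 86 junctions in DMSO and 10, 8 and 0 with ART558, or 0.563% ± 0.112 against 0.225% ± 0.212. As a share of junctions within 1 Mb of the break, the groups overlapped in this class.

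Deletions under 200 bp had the opposite order as a share of all junctions. They made up 16.2%, 15.6% and 15.1% in DMSO and 31.1%, 22.7% and 34.6% with ART558. Means were 15.6% ± 0.513 and 29.4% ± 6.12, or 26.9% ± 5.92 without ART558 replicate 3. A DMSO library thus held 3.48 to 3.65 deletions of 200 bp to 10 kb for each one under 200 bp, while ART558 libraries held 0.51, 0.539 and 0.13. The difference in small deletions depended on the denominator. Among junctions within 1 Mb of the break it was 27.6 percentage points, in place of 13.8 among all junctions. Per 100 junctions on other chromosomes there were 249, 225 and 216 deletions under 200 bp in DMSO, and 98.1, 52.1 and 164 with ART558. By the same measure deletions of 200 bp to 10 kb numbered 788 to 867 in DMSO and 21.4 to 50 with ART558, and inverted junctions within 10 kb past the cut 81.8 to 86.2 and 0 to 1.2.

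**Figure D1:**
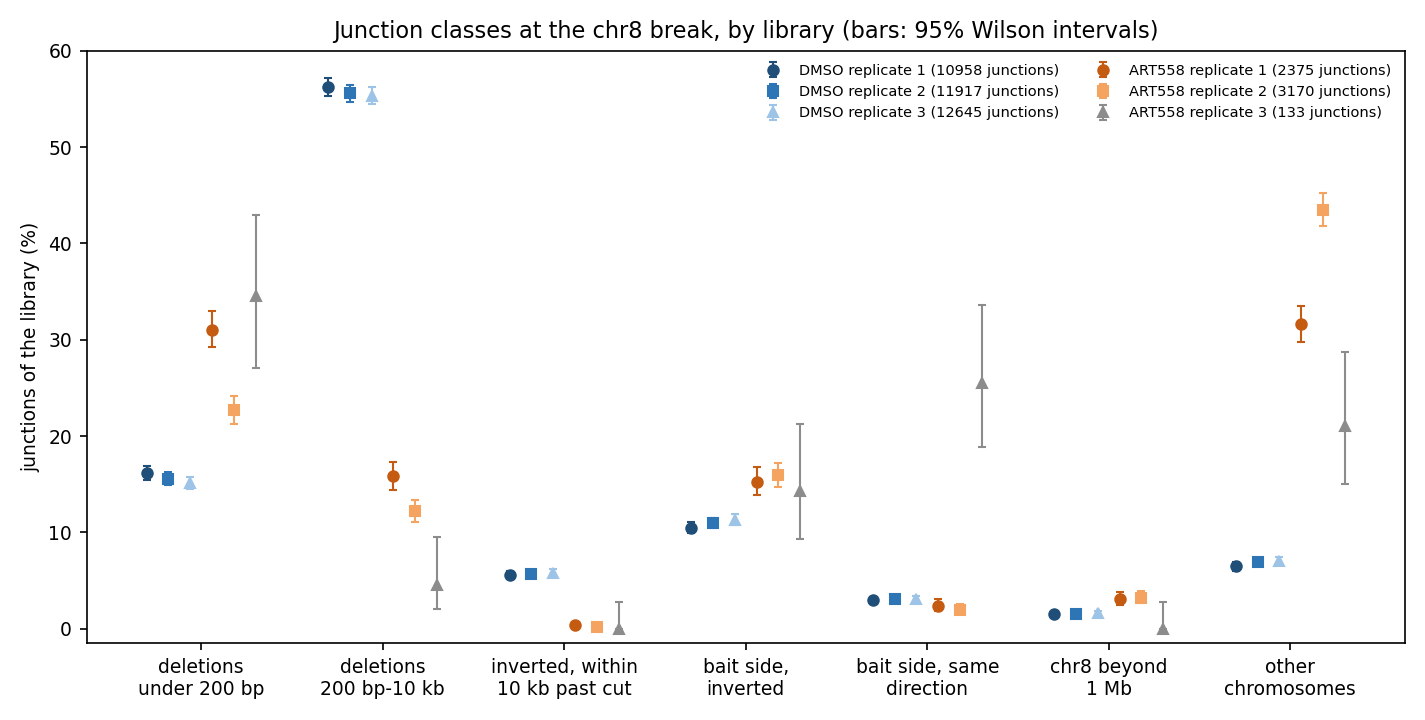
Percent of each library's junctions in 7 junction classes at the chr8 break, with 95% Wilson intervals, for 3 DMSO and 3 ART558 libraries. Deletions of 200 bp to 10 kb lie above 55% in every DMSO library and below 16% in every ART558 library, and ART558 replicate 3, with 133 junctions, stands apart on the bait side in the same direction.

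Inverted junctions past the cut were nearly absent with ART558. In this class the prey lies within 10 kb past the cut but reads back towards it. DMSO libraries held 613, 679 and 726 such junctions, or 5.59%, 5.70% and 5.74%. ART558 libraries held 9, 6 and 0, or 0.380%, 0.190% and 0%, and a count of 0 in 133 junctions allows a share of up to 2.26%. The groups did not overlap, with means of 5.68% ± 0.0767 and 0.190% ± 0.190, and the share was 19.9-fold lower without ART558 replicate 3. Inverted junctions from 10 kb to 1 Mb past the cut were rare in both groups, with 7, 15 and 12 in DMSO and 0, 1 and 0 with ART558.

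Inverted junctions on the bait's own side of the cut took a larger share with ART558. There the prey lies on the same side as the primer and reads away from the cut, and such junctions made up 10.5%, 10.95% and 11.3% in DMSO and 15.3%, 15.9% and 14.3% with ART558. Against deletions of 200 bp to 10 kb, there were 0.187 to 0.204 of them in DMSO and 0.965, 1.30 and 3.17 with ART558. Per 100 junctions on other chromosomes they were lower with ART558, at 48.3, 36.6 and 67.9 against 158 to 162 in DMSO. Bait-side junctions in the same direction made up 2.97%, 3.08% and 3.07% in DMSO, 2.36% and 1.99% in ART558 replicates 1 and 2, and 25.6% in replicate 3. In that last library 26 of 34 such junctions lay 201 to 500 bp from the cut, so the group mean of all bait-side junctions, 25.1% ± 12.8 against 13.96% ± 0.462 in DMSO, was 17.8% ± 0.192 without it.

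Junctions far from the break took a larger share with ART558. Other chromosomes received 6.49%, 6.92% and 7.02% of junctions in DMSO and 31.7%, 43.5% and 21.1% with ART558. That is 6.81% ± 0.284 against 32.1% ± 11.2, or 37.6% ± 8.38 and 5.52-fold higher without ART558 replicate 3. On chr8 itself, junctions beyond 1 Mb were 1.55%, 1.52% and 1.61% in DMSO, and 3.04%, 3.22% and 0% of 133 junctions with ART558. These groups overlapped only through the smallest library. Per 100 junctions on other chromosomes the order turned, with a difference of -17.2 (ART558 minus DMSO, exact permutation p = 0.1).

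With 3 libraries against 3, a two-sided exact permutation test cannot go below p = 0.1, and without ART558 replicate 3 not below p = 0.2. None of the 26 measures compared could therefore reach 0.05. Of these measures, 19 did not overlap between the groups in 6 libraries, each with the exact permutation p = 0.1 and a Benjamini-Hochberg value of 0.137. Without ART558 replicate 3 this held for 23 of 26, with exact permutation p = 0.2 and an adjusted value of 0.226. The tested class shares given above belong to the former, except junctions of chr8 beyond 1 Mb (exact permutation p = 0.7). Bait-side junctions were tested as 1 class, and those in the same direction overlapped between the groups through ART558 replicate 3.

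Deletions with ART558 lay close to the cut on the prey side. Among deletions of up to 10 kb, the first prey base lay 1 to 50 bp past the cut in 10.99%, 10.97% and 10.6% in DMSO. The same stretch, in capitals in the sequence past the cut, received 52.9%, 52.4% and 75.0% with ART558. The longer reaches were the ones with fewer deletions. Between 201 and 1000 bp lay 36.5% to 37.4% in DMSO and 16.6%, 18.1% and 11.5% with ART558. Between 1001 and 3000 bp lay 33.4% to 34.0% in DMSO, 14.4% and 14.03% in ART558 replicates 1 and 2, and 0 of 52 in replicate 3. The median distance of the prey past the cut was 757, 776 and 787 bp in DMSO and 45, 47 and 20 bp with ART558. Even the deletions under 200 bp were shorter on that side, with a mean prey-side loss of 67.8 bp ± 0.510 in DMSO and 35.4 bp ± 1.62 with ART558, or 34.5 bp ± 0.0986 without ART558 replicate 3 (exact permutation p = 0.1 and 0.2). On the bait side of the same deletions the order was the reverse, with mean losses of 20.5, 21.4 and 21.1 bp in DMSO and 33.0, 31.0 and 26.9 bp with ART558.

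**Figure D2:**
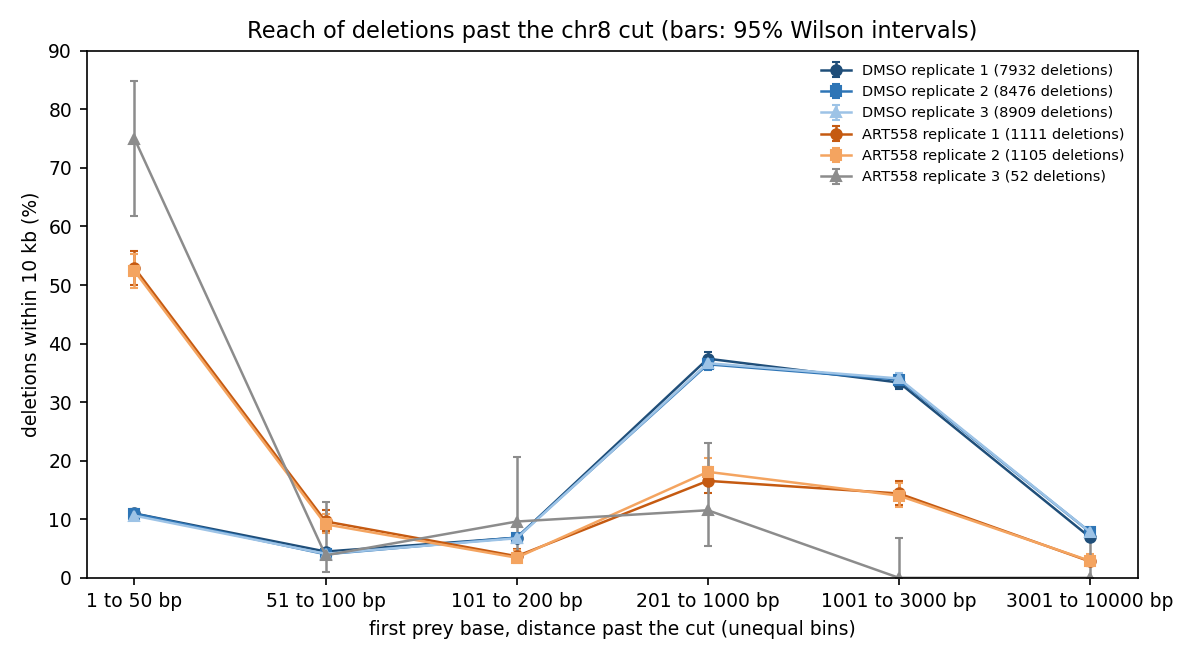
Percent of deletions of up to 10 kb by the distance of the first prey base past the cut, in 6 unequal distance bins, with 95% Wilson intervals for each library. The DMSO libraries peak between 201 and 3000 bp, and the ART558 libraries have 52.4% to 75.0% within 50 bp of the cut.

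Deletions under 200 bp were diverse in both groups, and no single product dominated. Distinct combinations of bait end and prey start made up 82.7% to 84.5% of them in DMSO and 88.0%, 85.4% and 67.4% with ART558, and the most frequent one occurred 4 to 7 times in a library. Products are described here because they recur across libraries, and 3 are given with their counts. The first ranks second by mean share over the 6 libraries, and the other 2 had the highest summed counts and were chosen after their values were seen.

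The first 2 products join different bait ends to the same prey start through the same 3 bases, GCA. Their prey starts at chr8:59477708, past the cut. The first deletes 20 bases, with a bait loss of 13 bp, and occurred 4, 1 and 4 times in DMSO and 3, 2 and 3 times with ART558. The second deletes 57 bases, with a bait loss of 50 bp, and occurred 4, 2 and 3 times in DMSO and 5, 3 and 2 times with ART558. The third, with a bait loss of 1 bp, was found 5, 6 and 5 times in DMSO and 2, 2 and 0 times with ART558. These counts are of the pair of ends and include junctions with inserted bases between them, 2 of 17, 6 of 19 and 8 of 20. By the rule of mean share, 6 products were examined, and each had 3 or 4 of its junctions in ART558 replicate 3, where there were 46 deletions under 200 bp in all. Joins that kept every base on both sides of the cut can be listed only with inserted bases, since without them the uncut sequence is restored. Such joins with inserted bases were seen 5, 7 and 3 times in DMSO and 0 times in each ART558 library.

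Microhomology differed in opposite directions in far junctions and in deletions of up to 10 kb. It was counted as the bases that bait and prey alignments share, over junctions with 0 to 10 bp. For junctions more than 1 Mb from the break, direct joins without microhomology made up 11.7%, 13.7% and 16.2% in DMSO and 28.1%, 28.2% and 27.3% with ART558 (13.9% ± 2.27 against 27.8% ± 0.483). Joins with 1 bp were also more frequent with ART558, at 25%, 21.2% and 31.8% against 15.3%, 16.4% and 17.3%. Joins with 2 to 4 bp, the most common kind in DMSO, made up 57.8%, 53.7% and 52.3% in DMSO and 36.1%, 38.1% and 18.2% with ART558. Mean microhomology of these far junctions was 2.66, 2.65 and 2.54 bp in DMSO and 1.94, 2.07 and 2.23 bp with ART558. All 4 measures were free of overlap (exact permutation p = 0.1 each), but mean microhomology overlapped when each distinct junction was counted once, with a difference of -0.373 bp (exact permutation p = 0.4). The share with 5 to 10 bp was 15.3%, 16.2% and 14.2% in DMSO and 10.9%, 12.6% and 22.7% with ART558, the last 5 of 22 junctions, so its direction turned without that library.

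In deletions of 200 bp to 10 kb the ART558 junctions carried more microhomology than those in DMSO. Their mean was 2.10, 2.06 and 2.06 bp in DMSO, and 2.86 and 2.72 bp in ART558 replicates 1 and 2, where replicate 3 had only 2 such junctions. Microhomology of 4 bp was found in 7.25%, 6.41% and 7.03% of them in DMSO and in 15.2% and 11.3% with ART558. Deletions under 200 bp showed the same order, with means of 1.57, 1.51 and 1.53 bp in DMSO and 1.82, 1.91 and 3.50 bp with ART558. The order of the 2 kinds of junction was therefore exchanged. The mean of far junctions minus that of deletions of 200 bp to 10 kb was 0.556, 0.592 and 0.480 bp in DMSO, and -0.925, -0.650 and -2.77 bp with ART558. Direct joins within deletions overlapped between groups. They made up 22.6% to 24.9% of deletions under 200 bp in DMSO and 22.6%, 19.03% and 6.25% with ART558 (exact permutation p = 0.2). In deletions of 200 bp to 10 kb they made up 13.2%, 13.5% and 12.9% in DMSO, 6.44% and 12.96% in ART558 replicates 1 and 2, and 0 of 2 in replicate 3.

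**Figure D3:**
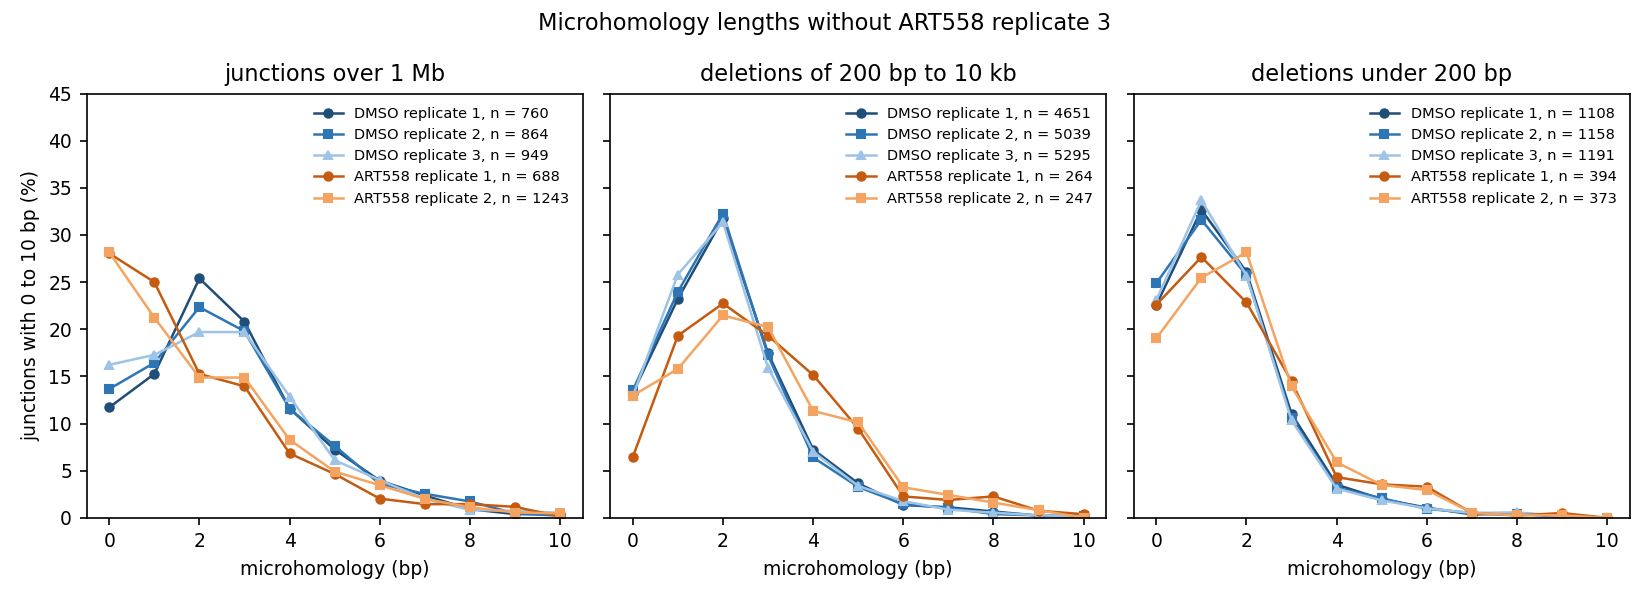
Percent of junctions by microhomology length, 0 to 10 bp, in junctions over 1 Mb, deletions of 200 bp to 10 kb and deletions under 200 bp, for 3 DMSO libraries and ART558 replicates 1 and 2. Far junctions peak at 0 bp with ART558, at 28.1% and 28.2%, whereas in deletions of 200 bp to 10 kb the ART558 curves lie to the right of the DMSO curves.

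Inserted bases differed more in what they were than in how often they occurred. Among far junctions, 12.7%, 13.3% and 12.5% carried inserted bases in DMSO and 15.6%, 15.2% and 21.4% with ART558. Insertions of 10 bp or longer were 2.50%, 2.79% and 3.67% in DMSO and 5.96%, 4.53% and 7.14% with ART558. Over junctions with at least 15 matching bases on each side of the junction, this difference was 0.782 percentage points in place of 2.90 and the groups overlapped (exact permutation p = 0.7). In deletions under 200 bp, insertions were found in 37.4%, 37.5% and 37.8% in DMSO and in 46.5%, 48.1% and 30.4% with ART558, so that the groups overlapped through replicate 3. With each junction counted once they did not, and the difference was 10.4 in place of 4.07 percentage points (exact permutation p = 0.1). Insertions of 10 bp or longer in these deletions were 5.42% to 6.20% in DMSO and 14.1%, 12.3% and 10.9% with ART558.

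Each insertion of 8 bp or longer was then searched, on both strands, in the 100 bp on each side of the cut. In DMSO 34.8%, 36.9% and 36.3% were found there, from 643, 658 and 719 insertions. With ART558 5.75% and 7.48% were found, from 261 and 294 insertions, and 0 of 12 in replicate 3. An insertion in DMSO was thus several times more likely to repeat sequence beside the break. The groups did not overlap, with 36.0% ± 1.07 in DMSO and 4.41% ± 3.92 with ART558, or 6.61% ± 1.23 without replicate 3 (exact permutation p = 0.1 and 0.2). This measure was chosen after the data were seen and is not among the 26. The same insertions searched around the chr6 and chr12 cuts, those of the other baits, matched 0 to 2 times in a library. The share was also compared by class. In deletions of 200 bp to 10 kb it was 40.9%, 43.4% and 43.5% against 2.94% and 6.52%. In junctions over 1 Mb it was smaller, 10.7%, 13.9% and 11.1% against 3.45% and 7.32%, with overlapping intervals.

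The strand of the matching bases also differed. Of the matched insertions, 84.8%, 82.7% and 82.8% in DMSO were found only as the reverse complement of the sequence around the cut, against 5 of 15 and 9 of 22 with ART558. As a share of all junctions, matched insertions were 2.04%, 2.04% and 2.06% in DMSO and 0.633%, 0.695% and 0% with ART558. Unmatched insertions showed the reverse, with 3.82%, 3.48% and 3.62% in DMSO and 10.4%, 8.59% and 9.02% with ART558. Junctions with clean ends, at least 15 matching bases on each side, made up 90.8% to 91.3% in DMSO and 77.1% to 81.2% with ART558. The part of unclean ends in the unmatched shares was not tested. The longest reverse-complement matches of DMSO replicates 1 and 3 were the same 25 inserted bases, in junctions with different bait ends and different prey. Those of ART558 replicates 1 and 2 were 24 and 20 bases long, and the latter matched the minus strand of chr8:59477707-59477726, past the cut.

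**Figure D4:**
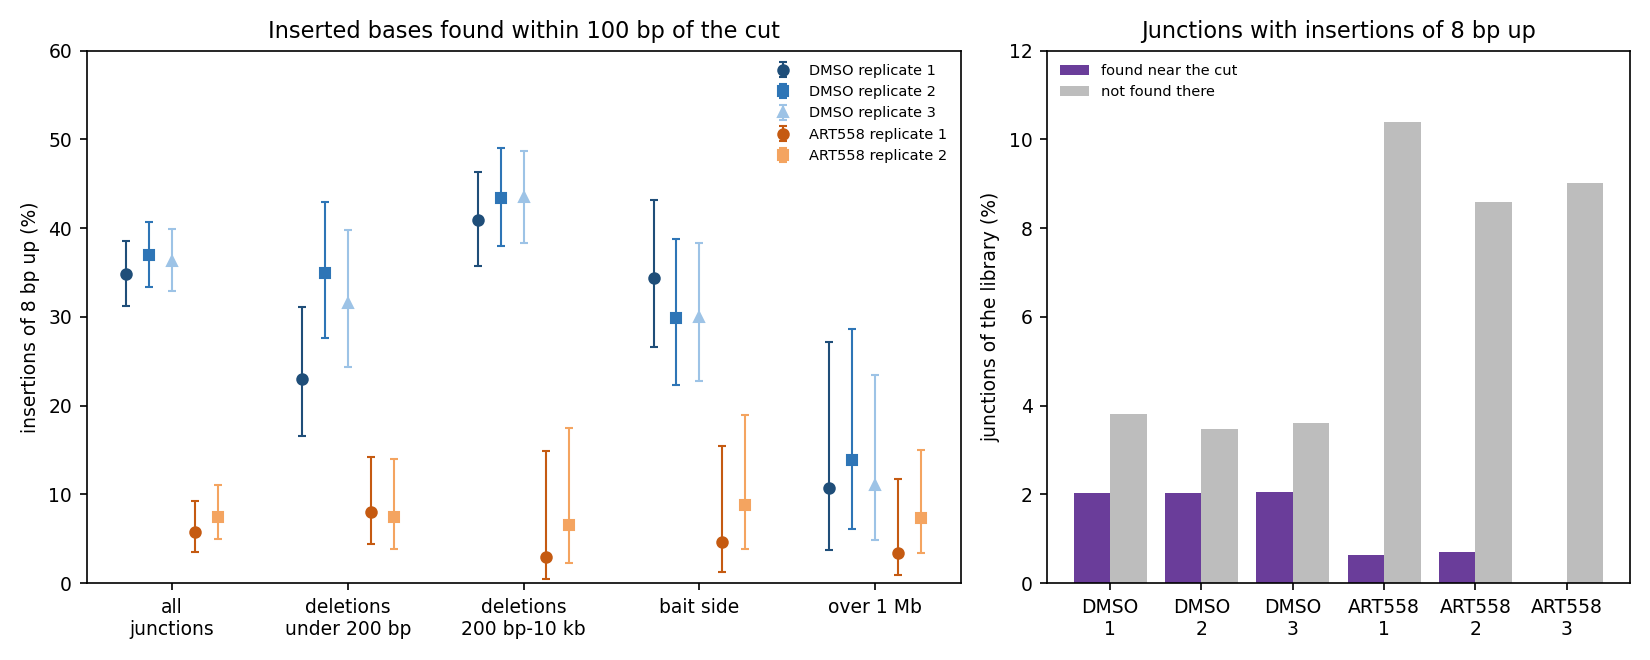
Left, percent of insertions of 8 bp or longer whose bases were found within 100 bp of the cut, by junction class, with 95% Wilson intervals, for 3 DMSO libraries and ART558 replicates 1 and 2. Right, bars give junctions with matched and unmatched insertions as a percent of each of 6 libraries; matched ones are 2.04% to 2.06% in DMSO and at most 0.695% with ART558.

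Bait ends were shorter with ART558, in far and near junctions alike. A bait that kept every base up to the cut is 129 bp long. In junctions over 1 Mb the mean bait length was 112.8, 111.2 and 111.7 bp in DMSO and 90.4, 91.1 and 72.2 bp with ART558. The means were 111.9 bp ± 0.828 and 84.6 bp ± 10.7, or 90.7 bp ± 0.439 without ART558 replicate 3, whose 28 far junctions gave the shortest value. Bait ends within 2 bp of the cut made up 20.5%, 16.4% and 19.6% in DMSO, and 7.30%, 6.29% and 0% with ART558. That difference of -14.3 percentage points was -7.71 with shared bases taken off the bait end. Long losses showed the reverse. Bait ends that lost over 20 bp made up 31.2%, 35.6% and 34.8% in DMSO and 74.5%, 74.4% and 92.9% with ART558. Within 1 Mb of the break the mean bait length was 114.2 bp ± 0.286 in DMSO and 95.4 bp ± 4.53 with ART558, or 97.97 bp ± 0.119 without ART558 replicate 3. None of these measures overlapped between groups (exact permutation p = 0.1 each).

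The lost bases of far junctions were not spread evenly with ART558. One peak lay at losses of 20 to 29 bp, with 18.98% and 20.2% of bait ends in ART558 replicates 1 and 2 and 16.5% to 17.2% in DMSO, but 0 of 28 in ART558 replicate 3. A second lay at 60 to 69 bp, with 17.6%, 16.6% and 14.3% with ART558 against 2.38%, 2.29% and 2.11% in DMSO. In ART558 replicates 1 and 2 these baits had joined 19 and 20 other chromosomes. Chr8 libraries with aphidicolin held 3.03%, 3.07% and 4.56% in this range, and those with aphidicolin and ART558 held 16.4%, 15.8% and 14.6%. The latter were read on 2 runs, of which run 3 held no library with ART558 alone.

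**Figure D5:**
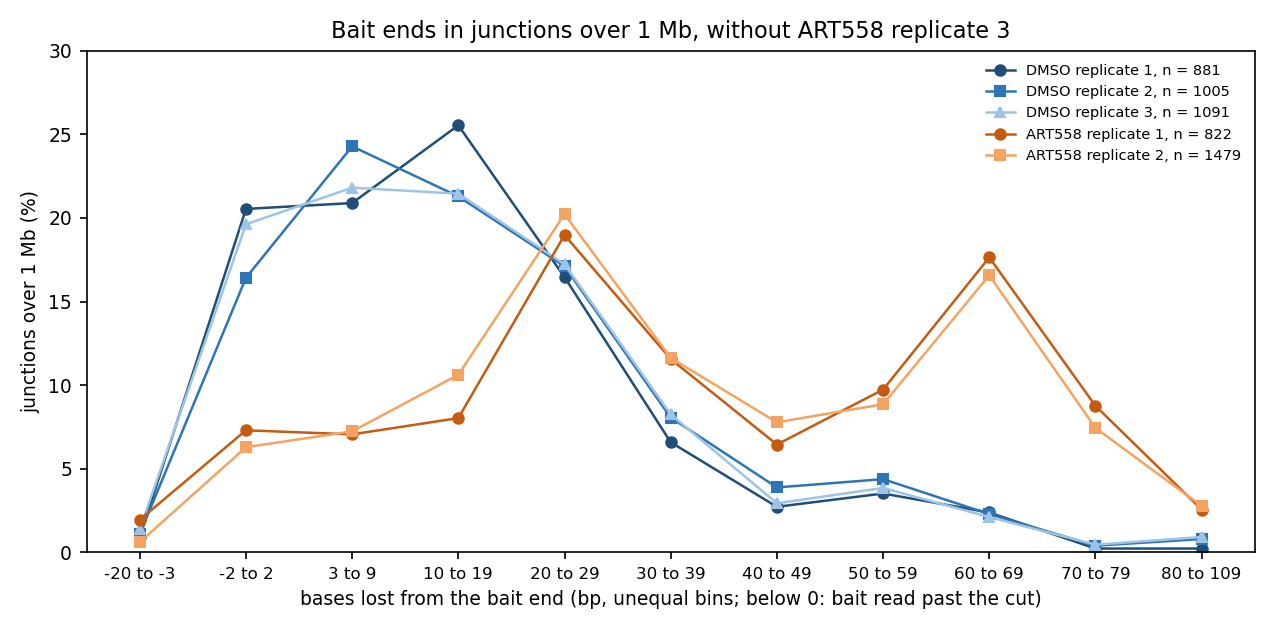
Percent of junctions over 1 Mb from the break by the number of bases lost from the bait end, in 11 unequal bins, for 3 DMSO libraries and ART558 replicates 1 and 2. The ART558 libraries have peaks at 20 to 29 and 60 to 69 bp, the latter with 17.6% and 16.6% against at most 2.38% in DMSO.

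The most frequent prey on other chromosomes lay in an intron of Lrmda (ENSMUSG00000063458.13), a gene of melanocyte differentiation at chr14:22019712-23056085. Its 10 kb window, chr14:22760001-22770000, holds a site that resembles the guide, on the minus strand at chr14:22766302-22766321, next to a GGG. It is printed because its 4 mismatches to the guide were the fewest beside an NGG in the 6 leading windows, of which the other 5 had 5 to 9. Its differences from the guide, counted from 1 at the guide's 5′ end, are G1A, T2G, C3T and T20A, in capitals.
site on chromosome 14 with PAM: AGTgaccatatgctaatctAggg

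This window received 50, 59 and 75 junctions in DMSO and 15, 39 and 0 with ART558. That is 7.03%, 7.16% and 8.45% of junctions on other chromosomes in DMSO, and 2.00%, 2.83% and 0% with ART558, where 0 of 28 allows up to 10.7%. The shares were 7.55% ± 0.782 and 1.61% ± 1.46, or 2.42% ± 0.589 without ART558 replicate 3 (exact permutation p = 0.1 and 0.2). As a share of all junctions the order was not the same, with 0.456%, 0.495% and 0.593% in DMSO and 0.633% and 1.23% in ART558 replicates 1 and 2. Prey that read away from the site, within the window, numbered 7, 10 and 10 in DMSO and 0 and 1 in those ART558 libraries.

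The other leading windows held few junctions. The window at chr2:98660001-98670000, over Gm10801, received 1, 3 and 2 in DMSO and 6, 17 and 0 with ART558. The window at chr14:19410001-19420000, over Gm21738, received 0, 2 and 0 in DMSO and 6, 8 and 0 with ART558. Both genes are predicted models, and reads from repeated sequence there cannot be placed with certainty. The remaining 3 were a window in Chchd3, a mitochondrial inner membrane protein gene, with 16 junctions, the next window of Lrmda with 9, and one 22.3 kb from Rpusd4 with 8.

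Prey on other chromosomes lay in protein-coding gene bodies in 51.1%, 51.5% and 52.5% in DMSO and 46.0%, 43.2% and 46.4% with ART558, whereas gene bodies cover 38.0% of these chromosomes. The groups did not overlap (exact permutation p = 0.1), but the difference was smaller once the Lrmda window was left out, with 47.4%, 47.7% and 48.1% against 44.9%, 41.6% and 46.4%. By chromosome, 4 of 20 did not overlap between groups, or 20% of chromosomes, and 8 of 20, or 40%, without ART558 replicate 3. The 4 were chromosomes 1 and 15, lower with ART558, and 6 and 19, higher, each with an exact permutation p = 0.1 and an adjusted value of 0.5 over 20 chromosomes. Chromosome 1 received 8.44% in DMSO and 5.24% with ART558 (6.07% without ART558 replicate 3), and chromosome 15 received 4.27% and 2.31% (3.47%). Chromosome 6 received 4.95% and 6.30% (5.88%), and chromosome 19 received 2.87% and 3.67% (3.71%). Chromosome 14, with the Lrmda site, received 11.4%, 12.9% and 13.2% in DMSO and 6.93%, 7.63% and 14.3% with ART558.

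Recurrent DNA-break clusters (RDCs) are long neural genes in which breaks gather under replication stress. The list used here does not hold all the RDCs that the study defines, and 98 of those it holds lie outside chr8. Windows of 1 Mb centred on these 98 received 4.36%, 3.40% and 3.60% of the other-chromosome junctions in DMSO, and 5.47%, 2.76% and 14.3% with ART558. The share of the chromosomes that these windows cover is not given here, so no excess over it can be read from these values. The groups overlapped (exact permutation p = 0.4), and the highest value rests on 4 junctions, all in the window of Nkain2. The 6 libraries placed 174 junctions in 79 of these windows, at most 6 in one, Magi2, which encodes a synaptic scaffold, with 2, 1 and 0 in DMSO and 2, 1 and 0 with ART558. Cdkal1, Prkg1, Dab1 and Sdk1 had 5 each. Prey on the plus strand made up 49.2%, 55.2% and 52.0% in DMSO and 46.3%, 46.3% and 50% with ART558, and the groups overlapped (exact permutation p = 0.2). With each junction counted once they did not, at a difference of -7.34 in place of -4.62 percentage points (exact permutation p = 0.1).

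The chr6 and chr12 baits, whose DMSO and ART558 libraries shared a run, give the same measures without the difference of runs. Each had 2 DMSO and 3 ART558 libraries. Deletions of 200 bp to 10 kb averaged 42.1% in DMSO and 13.1% with ART558 for chr6, and 46.5% and 11.3% for chr12. Inverted junctions within 10 kb past the cut averaged 4.77% and 0.428% for chr6, and 7.50% and 0.170% for chr12. Inserted bases of 8 bp or longer were found near the bait's own cut in 24.0% and 24.8% in DMSO for chr6, and in 7.60%, 3.08% and 6.70% with ART558. For chr12 the values were 23.9% and 25.3% in DMSO, and 4.81%, 6.76% and 8.68% with ART558. In these 3 measures the groups of all 3 baits lay apart in the same direction, and chr8 had the highest DMSO share of deletions of 200 bp to 10 kb, with 55.3% to 56.2% against 39.5% to 48.4% in the 4 other DMSO libraries. Of the 19 measures that did not overlap between groups at chr8, 15 did not overlap at chr6 and chr12 either, in the same direction. The other 4 were bait-side junctions, the 2 insertion measures of far junctions and prey in gene bodies. Bait-side junctions averaged 15.77% and 15.80% for chr6, with overlap, and 13.1% and 16.4% for chr12. Insertions of 10 bp or longer averaged 9.08% and 10.0% for chr6 and 4.26% and 5.04% for chr12, with overlap at both. Prey in gene bodies averaged 47.0% and 46.2% for chr6 and 46.9% and 47.1% for chr12, with overlap of the chr6 and chr12 groups.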

How the data were processed

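LAM-HTGTS junctions of 6 libraries were analysed. The authors trimmed and demultiplexed reads, aligned them with Bowtie2 within the HTGTS pipeline to mm10 (named in the submitters' processing notes and the methods) and listed each junction. The deposited tables hold coordinates and read positions of bait and prey, 1 junction a line,. Bait mismatches lay mostly in the first 54 bait bases (97.6% to 97.8% in DMSO, 89.2% to 90.8% with ART558). 1 table of the chr6 bait ends within a line, which was dropped.

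Measures were computed in Python (3.11.15) from pandas (2.3.3) and NumPy (2.4.6) arrays, with every regrouping of libraries enumerated, Wilson intervals and chi-square tests from SciPy (1.17.1), and plots drawn in Matplotlib (3.10.9). The guide and nested primer were located in the GRCm38 sequence, and gene bodies came from the reference annotation (21938 protein-coding genes). Only prey on assembled nuclear chromosomes entered the counts, which left out 0 to 5 junctions a library. Repeated junctions were kept, and molecules behind them cannot be counted from what was used here.

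Library means of DMSO and ART558 were compared on 26 measures by exact permutation (two-sided, Benjamini-Hochberg adjusted), and the measures were tested on simulated junctions. Members, classes and lists were chosen with earlier results of these data known. RDC positions came from 1 list of the study's supplement. Named items were the 6 most frequent deletions under 200 bp by mean share, the 6 prey windows of 10 kb and the 6 RDC windows with most junctions. Replicate numbers are shared by the groups, and deviations of same-numbered libraries over the 8 classes correlated at 0.817, 0.271 and 0.225. These values do not settle whether the numbers pair the libraries. The tests printed here were therefore unpaired, and pairing by number (the replicate block) was tried only as an alternative. Alternatives left out each library, repeats, the leading prey window, unclean ends or bait ends that lost 60 to 69 bp, pooled junctions, and changed totals, limits and windows. Those on clean ends, junction totals, these bait ends, the leading window, prey by chromosome and matched insertions were chosen after seeing the data. The sequence on the bait side of the cut is not reported here.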

Additional observations from a re-analysis of the deposited data

Results flagged for a closer look

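The share of far junctions with inserted bases differed between treatments in opposite directions at the chr8 and chr12 breaks. At chr8 it was higher with ART558 by 4.55 percentage points, with every ART558 library (15.2% to 21.4%) above every DMSO library (12.5% to 13.3%). Without ART558 replicate 3, where 6 of 28 far junctions carried insertions, the difference was 2.52 points. At chr12 every ART558 library (9.70% to 11.45%) lay below both DMSO libraries (11.48% to 12.3%). At chr6 the groups overlapped, with a difference of -0.911 points. The difference between the baits was not tested.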

How the results depend on the processing

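Differences are ART558 minus DMSO, in percentage points unless stated. Of 352 alternative values, the replicate block aside, 335 kept the direction and the side of the threshold. No test could reach 0.05, so the side of the threshold could not change. Groups that came to overlap, or ceased to, were not counted as a change. Microhomology of 5 to 10 bp in far junctions had no settled direction: it was -3.11 for pooled junctions, -0.647 with insertions in the total, -0.0371 without an upper limit, -0.0731 with clean ends and -0.022 without the leading prey window, and ranged from -3.51 (without ART558 replicate 3) to 2.41 (without ART558 replicate 1) when 1 library was left out, with -0.341 without DMSO replicate 3. Over all junctions, near ones included, microhomology of 5 to 10 bp was 8.68 (exact permutation p = 0.1), that of 1 bp -0.634 and mean microhomology 0.134 bp higher. Among junctions within 1 Mb, deletions under 200 bp were 27.6 and bait-side junctions 21.8, against 13.8 and 11.2. Per 100 junctions on other chromosomes, deletions under 200 bp were -125, bait-side junctions -109.6 and chr8 junctions beyond 1 Mb -17.2. The latter ranged from -0.0399 (without ART558 replicate 2) to 1.57 (without ART558 replicate 3) as a share, and were 0.052 without ART558 replicate 1. RDC windows of 0.5 Mb gave -0.425, and clean ends gave 0.11 for the plus strand. Chromosomes without overlap numbered 5 to 9 when 1 library was left out, 9 without ART558 replicate 2 and 8 without ART558 replicate 3. ART558 replicate 3 moved 6 further values by over 1.5 times: without it, bait-side junctions were 3.82, insertions 2.52, insertions in deletions under 200 bp 9.68, RDC windows 0.326, and direct joining -2.70 in deletions under 200 bp and -3.52 in those of 200 bp to 10 kb. Insertions in deletions under 200 bp were 1.66 and 0.867 without ART558 replicates 1 and 2, and RDC windows 6.09 without replicate 2. Insertions of 10 bp or longer in far junctions were 0.782 with clean ends, against 2.90, and insertions in far junctions 9.24 with each junction counted once, against 4.55. Counting each junction once also gave 10.4 for insertions in deletions under 200 bp and -7.34 for the plus strand, and taking shared bases off the bait end -7.71 for bait ends within 2 bp of the cut. Prey in gene bodies was -3.43 without the leading window, against -6.45. The replicate block says nothing of stability: in this balanced design it leaves every difference as it was (deletions of 200 bp to 10 kb at -44.9), and its exact permutation p cannot go below 0.25. The sequencing run and treatment cannot be told apart at this bait. Each library's number of far junctions, 28 in the smallest, limits the precision of microhomology and bait ends.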
